A study of Mus musculus with 4 samples.

Results

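Polyadenylated RNA of haematopoietic stem cells, the marrow cells that keep up blood formation for life, was read in 4 libraries, and libraries 3 and 4 are set here against libraries 1 and 2. All 4 came from wild-type C57BL/6 mice and from freshly sorted bone marrow cells of the SP-KSL-CD150+ gate, in which SP (side population) cells are recognised by export of a dye and KSL names cells positive for Kit and Sca-1 without lineage markers. Every label describes its library as a technical replicate of biological replicate 1, whereas the design text of the series speaks of duplicates. The labels give no treatment, age or date that separates libraries 3 and 4 from 1 and 2, so the pairs rest on the library numbers alone. Each pair was averaged and counted as 1 sample, no test was possible between 1 sample and 1 sample, and the spread given is that between the members of a pair. The comparison covers 34315 features, of which 13089 had a mean of at least 100 normalised counts over the 4 libraries and are called measured below.

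Immediate early genes are transcribed within minutes of a stimulus without new protein synthesis, many of them through serum response factor and CREB, and their messengers decay fast. They include the Fos and Jun families, which together form the AP-1 factor, the Egr zinc finger factors, and the phosphatases and RNA-binding proteins that end the response. In marrow stem cells they are known both as genes of the resting state and as genes that respond quickly to handling. A different class of RNA stays in the nucleus: Malat1 and Neat1, both of which lie by nuclear speckles or build paraspeckles, are its best known members.

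The 4 libraries held 40709659, 40798800, 47408552 and 47365062 counts in the order of their numbers. The median chi-square of a feature's counts, with 1 degree of freedom, was 0.763 in libraries 1 and 2 and 0.682 in libraries 3 and 4, somewhat above the 0.455 that counting noise alone gives. Between libraries of different pairs it was 12 to 13. The median absolute log2 difference per measured feature was 0.045 within libraries 1 and 2, 0.044 within libraries 3 and 4 and 0.259 between the pair means. The markers of the sort were present in all libraries: the receptor Kit had 56135, 56142, 65827 and 64658 normalised counts in library order, and Slamf1, which encodes CD150, had 1747, 1765, 2436 and 2409.

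A feature was called when its pair means differed at least 2-fold, on the scale log2(mean + 0.5). Of the measured features, 209 (1.60%) were higher in libraries 3 and 4, 591 (4.52%) were lower, and 800 (6.11%) were called in either direction. These percentages are the background against which the gene lists below are read. A feature that is low in 1 pair can reach the minimum mean through the other pair alone, so called shares depend partly on this filter, in both directions. Only 9 features were 2-fold apart within libraries 1 and 2 and 5 within libraries 3 and 4. In all 209 and all 591 the libraries of 1 pair lay wholly above those of the other. With pairs this close, a 2-fold difference of pair means all but ensures such a separation, so it adds nothing to the call, here or for the genes named below. The share of all measured features so separated is not given. At least 4-fold differences were found for 46 higher and 181 lower features. The median log2 ratio of all measured features was 0.049. Of the 591 lower features, 17 were in the neutrophil lists and 574 were not. Of these 574, 338 carry a gene symbol.

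**Figure D1:**
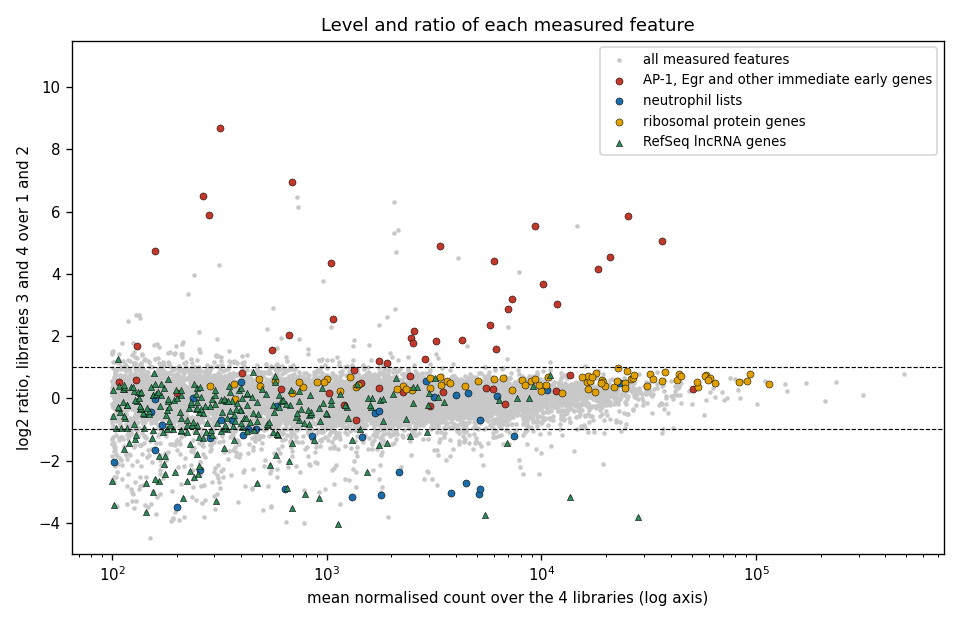
Log2 ratio of libraries 3 and 4 over 1 and 2 (vertical axis) against the mean normalised count over the 4 libraries (horizontal log axis) for the 13089 measured features, with the 2-fold limits dashed. The red immediate early genes reach 8.68 at the top, while green triangles (RefSeq lncRNA genes) and blue circles (neutrophil lists) make up part of the lower cloud and the yellow ribosomal protein genes lie between -0.01 and 0.99.

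Promoters of the higher genes are shown first, because several of these genes are known targets of serum response factor and CREB. Of the 13089 measured features, 8463 had a promoter in RefSeq (GRCm38.p6, 250 bases before to 50 after the gene start), including 124 of the higher and 297 of the lower features. The CArG box, the sequence that serum response factor binds, was found on either strand in 1.56% of all 8463 windows, in 7.26% of the 124 windows of higher genes and in 1.01% of those of lower genes. Among the 27 windows of genes at least 4-fold higher, 3 (11.1%) held it, and these stretches are printed with the CArG box in capitals. The build differs from the mm9 of the counts, so these positions are not to be read against mm9.
Dusp5, chr19:53529038-53529097, plus strand: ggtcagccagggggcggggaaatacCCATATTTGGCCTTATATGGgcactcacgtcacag
Egr2, chr10:67537469-67537528, plus strand: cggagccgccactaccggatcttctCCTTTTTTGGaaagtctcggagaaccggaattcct
Zfp36, chr7:28379252-28379311, minus strand: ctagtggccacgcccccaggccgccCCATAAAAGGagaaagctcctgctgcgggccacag
The Dusp5 stretch holds 2 boxes side by side, and the stretches of Egr2 and Zfp36 hold 1 each.

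The palindrome TGACGTCA, the full cyclic AMP response element, was found in 3.65% of all windows, 4.84% of those of higher genes and 2.69% of those of lower genes. Among the 27 genes at least 4-fold higher it was in 4 windows (14.8%), printed here with the element in capitals.
Btg2, chr1:134079289-134079346, minus strand: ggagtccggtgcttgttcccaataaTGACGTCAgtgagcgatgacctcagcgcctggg
Dusp1, chr17:26508583-26508640, minus strand: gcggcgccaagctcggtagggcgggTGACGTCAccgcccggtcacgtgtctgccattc
Maff, chr15:79347466-79347519, plus strand: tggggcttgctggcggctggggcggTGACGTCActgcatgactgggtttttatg
Ppp1r15a, chr7:45526269-45526305, minus strand: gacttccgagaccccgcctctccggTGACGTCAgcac
A match describes the letters in a window and does not show that a factor binds there. TTGCNNAA, the motif of C/EBP factors on either strand, was in 9.96% of all windows, in 13.7% of the 124 higher and 9.09% of the 297 lower ones, and in 5 of 14 (35.7%) of the called genes of the neutrophil lists, namely Fcnb, Lcn2, Ltf, Ngp and S100a9. Of the 4 other motifs searched, the AP-1 site TGANTCA was in 5.87% of all windows, 5.65% of the higher ones and 0 of the 27. GGAAGT, the site of Ets factors such as PU.1, was in 32.9% of all, 23.4% of the higher, 30.6% of the lower and 57.1% of the 14 neutrophil windows. AGATAA, the GATA site, was in 7.85% of all, 12.1% of the higher and 9.76% of the lower windows, and the E-box CACGTG in 12.1%, 13.7% and 9.09%. Among the 27, CACGTG and GGAAGT were each in 6 windows (22.2%), and AGATAA and TTGCNNAA each in 4 (14.8%). Among the 14 neutrophil windows AGATAA was in 3 (21.4%), and the CArG box, TGACGTCA, TGANTCA and CACGTG were in 0. Motif shares thus differed in both directions.

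The higher genes were led by immediate early genes. Of 12 measured AP-1 factors, 8 were higher and 0 lower, with a median log2 ratio of 2.46 against 0.05 for all features. Atf3, a repressor of the ATF branch, had 7.36 and 10.5 normalised counts in the first pair and 547 and 566 in the second. It reached the minimum mean only through libraries 3 and 4. Fosb, a Fos partner of Jun, had 227 and 212 against 6622 and 6361, which was 29.5-fold higher. The Jun members Junb and Jund, which have milder activity than Jun, were 12.7-fold and 7.37-fold higher. In each of these genes the libraries of a pair lay within a narrow range and the pairs were far apart. The small Maf protein Maff had 248 and 276 against 1087 and 1065, and the Fos-related Fosl2 was 2.18-fold higher, whereas Fosl1 (log2 ratio 0.52), Mafk (0.21), Batf (0.17) and Mafg (-0.69) stayed inside the limits. Fos and Fosb share their span with a feature on the opposite strand, and the library kit as named keeps no strand, so reads of such partners cannot be told apart. The same holds for Klf2, Egr3, Nr4a1, Btg2, Dusp2 and S1pr1 below.

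Among 5 measured genes of the Egr family and its Nab corepressors, the 3 Egr factors were higher and both corepressors were not called. Egr3 had 4.21 and 6.28 normalised counts against 496 and 553. Egr2, a factor of myeloid and neural cells, had 15.8 and 6.28 against 299 and 314. Egr2 and Egr3 reached the minimum mean only through libraries 3 and 4. Nab1 and Nab2, which bind Egr proteins and hold them in check, were at log2 ratios of 0.34 and 0.34.

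Of 35 other measured immediate early genes, 20 were higher and 0 lower, with a median of 1.56. Ptgs2, the inducible cyclooxygenase of prostaglandin synthesis, had 11.6 and 9.42 normalised counts against 1320 and 1411, a 124-fold difference. Cyr61, a secreted matrix protein and a target of serum response factor and of YAP, had 0 and 2 reads in libraries 1 and 2 against 680 and 661 in libraries 3 and 4. The ratio is therefore known only through its 95% interval from counting, 167-fold to 4999-fold. A count of 0 in library 1 allows up to 0.0737 CPM, and such limits cover counting error only. Both genes were all but missing from the first pair and reached the minimum mean only through libraries 3 and 4.

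The RNA-binding protein Zfp36, which speeds the decay of short-lived messengers, had 1638 and 1804 normalised counts against 40681 and 39233. Ppp1r15a, the stress-induced phosphatase subunit that restores translation, had 1462 and 1415 against 13440 and 12885. The early gene Ier2 had 2583 and 2542 against 21391 and 20938, 8.26-fold higher. As in every called feature, the pairs did not overlap in these genes, which adds nothing to the call. The antiproliferative gene Btg2 was 21.5-fold higher and Hes1, a Notch target and early repressor, 20.2-fold. The Trib1 pseudokinase was 5.87-fold, the small GTPase Rhob 5.13-fold and Ier3 4.44-fold higher. Members of the same list that stayed within the limits included the serum response factor gene Srf itself (-0.23), the proto-oncogene Myc (0.23) and the kinase Pim1 (-0.18). Among the orphan receptors, Nr4a1 was 46.5-fold higher, Nr4a2 had 308 and 273 against 510 and 523, and Nr4a3 had only 4.19 to 11.6 normalised counts in any library.

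**Figure D2:**
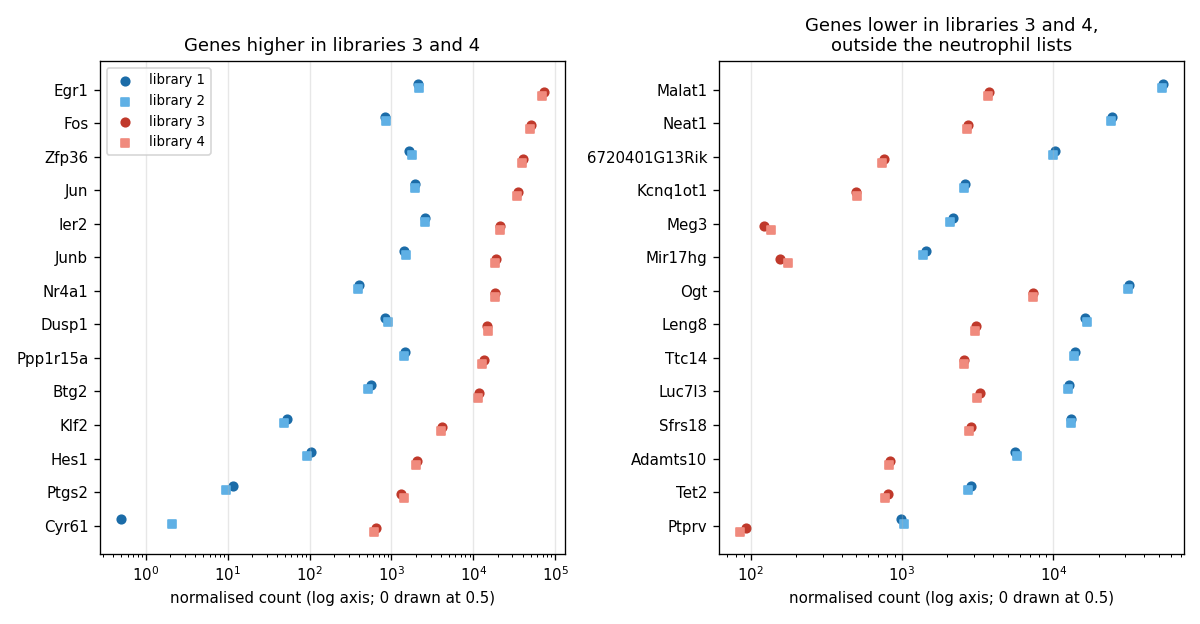
Normalised count in each of the 4 libraries (log axis; circles and squares mark the members of a pair, blue for libraries 1 and 2 and red for 3 and 4) for 14 higher genes on the left and 14 lower genes outside the neutrophil lists on the right. The members of a pair nearly coincide in each row except at the lowest counts, where Cyr61 had 0 and 2.09 in libraries 1 and 2, and the pairs are apart in every row.

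The Klf family was split. Of 13 measured Klf genes 3 were higher and 0 lower: Klf2 had 53.6 and 49.2 normalised counts against 4144 and 4020, Klf4 had 25.2 and 35.6 against 591 and 614, and Klf6 had 2412 and 2315 against 11816 and 11500. Klf2 and Klf4 are quiescence factors of lymphoid and vascular cells. Both reached the minimum mean only through libraries 3 and 4. Klf9 (0.96) came close to the limit and the other 9 did not, with the erythroid factor Klf1 at -0.43 and Klf8 at -0.61. The family median of 0.27 therefore hides 3 genes with large differences among many with small ones.

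Feedback inhibitors of ERK signalling were higher in 5 of 14 measured cases and lower in 1. Dusp1, a phosphatase of nuclear MAP kinases, had 844 and 918 normalised counts against 14760 and 14930. Dusp5, which acts on nuclear ERK, was 7.53-fold higher, Dusp2 3.24-fold, Spry2 2.40-fold and Spry1 2.33-fold. Spred3 was the exception, with 1181 and 1229 against 394 and 379. Dusp6, which acts on cytoplasmic ERK, was at 0.38 and Spry4 at 0.00.

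CREB targets were higher in 4 of 14 cases, all of which (Nr4a1, Fosb, Dusp1 and Sik1) are also in the lists above, and lower in 1, the cofactor Crebzf (-1.45). Sik1, a salt-inducible kinase, had 1865 and 1786 normalised counts against 6784 and 6589. Of 20 measured TGF-beta and BMP feedback genes, 4 were higher: Junb, Id1 (55.7 and 57.6 against 206 and 182), Thbs1 and Bambi, a decoy receptor that was 2.06-fold higher. Id1 and Thbs1 reached the minimum mean only through libraries 3 and 4. Of 26 p53 targets and cell cycle inhibitors 5 were higher, among them Cdkn1a, the p21 inhibitor, with 158 and 213 against 885 and 858, and Plk2, a stress-responsive kinase, 3.46-fold. Mdm2, a direct p53 target, was at -0.16 and Bax at -0.42.

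The NF-kB list stood near the background, with 1 of 17 measured members higher. That member was Nfkbiz, an atypical nuclear inhibitor, with 584 and 552 normalised counts against 2929 and 2950, whereas the classical inhibitor gene Nfkbia was at 0.11. Of 19 heat shock chaperones, 2 were higher by small margins: Dnajb1 2.03-fold and Hspb8 2.08-fold. Both fell short of 2-fold when libraries were scaled by their total counts. The cytosolic Hsp70 gene Hspa8 was at 0.48 and Hsp90aa1 at 0.11. Cytokine feedback showed Socs3, which blocks gp130 and leptin receptor signalling, at 487 and 509 against 3576 and 3722.

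Rgs1 and Rgs2 of the early gene list, which switch off heterotrimeric G proteins, were 2.98-fold and 3.83-fold higher, and Sgk1, the glucocorticoid-induced kinase of that list, 2.94-fold. Rasd1, Chrm3 and Igfbp5 stood on no list and were picked after their values were seen. Rasd1, a steroid-induced small GTPase, was 10.2-fold higher, with 36.8 and 42.9 normalised counts against 402 and 419, and shares its span with Med9. The muscarinic receptor gene Chrm3 was 3.83-fold and the secreted Igfbp5 3.77-fold higher. In the niche list, S1pr1, the receptor that guides exit of cells from marrow, had 1323 and 1249 against 3062 and 2978.

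The lower features had a different make-up. The list named nuclear noncoding RNAs was lower in 10 of 24 measured cases and higher in 0, with a median of -0.75. It also holds host transcripts of small RNAs, such as Gas5 and Mir17hg. Where its members lie in the cell was not measured. In bulk RNA, fewer cells of a type and less RNA per cell cannot be told apart, here and in every result that follows. Meg3 (mm9, chr12:110779206-110809939), the maternally expressed transcript of the Dlk1 domain, was 16.4-fold lower. Malat1 (mm9, chr19:5795690-5802671), the speckle RNA, had 52848 and 52481 normalised counts against 3766 and 3720. Its genomic neighbour Neat1 (mm9, chr19:5842302-5845478), the scaffold of paraspeckles, had 24386 and 24247 against 2730 and 2680. Malat1 and Neat1 thus differed 14.1-fold and 8.99-fold, with members of each pair almost equal.

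The X-linked RNA 6720401G13Rik (mm9, chrX:47908921-47988435), now named Firre and known to organise nuclear chromatin, had 10304 and 9998 normalised counts against 764 and 744. Kcnq1ot1, the long antisense RNA that silences the Kcnq1 imprinted domain, had 2610 and 2573 against 497 and 502. Neither gene overlaps another measured feature (partners under the minimum mean were not looked at), and in both the pairs were far apart. Gas5, a host of small nucleolar RNAs whose own messenger is degraded on ribosomes, had 10408 and 9702 against 3672 and 3850, and the hosts Snhg7 and Snhg3 were 2.28-fold and 2.10-fold lower. The other hosts were less far apart, Snhg5 at -0.98 (1899 and 1906 against 958 and 979), Snhg12 at -0.48 and Snhg1 at -0.21. Tug1 (0.01), Dleu2 (0.15) and Peg13 (0.40) were not lower at all. A place in the nuclear list therefore did not go with a lower count in every case.

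Some host transcripts of microRNAs were among the lower features. The 21 measured features that RefSeq classes as miRNA did not stand apart, with 1 lower (4.76%) and a median of 0.07. Their median level was 4908 normalised counts. A feature with joined names took the class of its first matched name, so these need not be microRNAs alone. Apart from Mir17hg, a member of the nuclear list, the hosts named here were picked after their values were seen. Mir17hg, the primary transcript of the cluster that favours proliferation of blood progenitors, had 1448 and 1379 normalised counts against 157 and 178, an 8.42-fold difference, and overlaps the opposite-strand feature HAG_012949. The host of Mir29b-2 and Mir29c was 12.6-fold lower, with 257 and 280 against 18.1 and 23.5. The host of Mir101a was 6.36-fold lower and that of Mir223, a myeloid microRNA, 4.53-fold lower, with 412 and 419 against 83.0 and 99.6. Mature microRNAs are too short for these libraries and were not measured, so the counts describe the polyadenylated hosts. The mature sequences that the Mir17hg transcript carries are shown, from RefSeq GRCm38.p6, to identify its products, with the seed (bases 2 to 8) in capitals.
mmu-miR-17-5p: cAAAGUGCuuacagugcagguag
mmu-miR-20a-5p: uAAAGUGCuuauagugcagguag
mmu-miR-18a-5p: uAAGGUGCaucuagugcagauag
mmu-miR-19a-3p: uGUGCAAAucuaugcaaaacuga
mmu-miR-19b-3p: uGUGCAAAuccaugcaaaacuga
mmu-miR-92a-3p: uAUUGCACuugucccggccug
MiR-17 and miR-20a share the seed AAAGUGC and miR-19a and miR-19b share GUGCAAA, while miR-18a and miR-92a have a seed of their own.

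The excess of noncoding RNA among lower features was seen across the class. Of 263 measured features that RefSeq calls lncRNA, 67 (25.5%) were lower and 1 was higher, against 360 of 11253 (3.20%) lower and 171 (1.52%) higher for protein-coding genes. The single higher lncRNA was 0610007N19Rik, with 50.5 and 74.3 normalised counts against 127 and 177. The classes differ in level, with a median of 323 normalised counts for lncRNA and 1837 for protein-coding features, and the share of lower features was 13.2% at means of 100 to 200 and 1.53% above 10000. Among features with a mean of at least 500, 27.0% of 89 lncRNA and 2.30% of 9398 protein-coding features were lower, and at 1000 or more 25.6% of 43 and 2.09% of 7747. Restricted to features without an overlapping partner the shares were 24.3% and 3.21%. The gap between the classes was thus as wide at matched minimum levels and without overlaps. Beyond the named list, 2810008D09Rik had 1210 and 1340 normalised counts against 106 and 113, and C030034L19Rik had 1156 and 1146 against 155 and 159.

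Transcribed pseudogenes were lower in 15 of 66 cases (22.7%) and higher in 0, whereas other pseudogenes were lower in 1 of 155 (0.645%) and higher in 3. A feature with joined names took the class of its first matched name, so the 66 are not all pseudogenes. They include Hnrnpa3 (-0.17), Hnrnpa1 (0.12) and Rpl30 (0.54), each joined to a pseudogene name and not called. The shares of these classes are therefore approximate. Ptprv, a remnant of a receptor phosphatase gene, had 987 and 1032 normalised counts against 93.5 and 85.5. Pisd-ps1 was 4.43-fold lower and Tmem181b-ps 5.98-fold lower. Pisd-ps1 overlaps Sfi1, itself 2.47-fold lower, and Tmem181b-ps overlaps Tulp4, whose 92.6 to 130 counts lie far under those of the pseudogene. In C57BL/6 mice the interferon-induced GTPase genes Mx1 and Mx2 are classed in RefSeq as transcribed pseudogenes, and both were lower, 2.47-fold and 2.44-fold. Oas1b, of the same RefSeq class, was 3.41-fold lower. H2-K2, a class I histocompatibility pseudogene, had a log2 ratio of -1.57.

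Loci that the deposited table lists by number in place of a symbol also held many lower features. Of 354 measured features whose names start with HNG, 61 (17.2%) were lower, and of 54 starting with HND, 16 (29.6%). Those starting with HAG were lower in 35 of 714 cases (4.90%), close to all features, but their share differed by position. Apart from genes with a symbol, 14 of 76 HAG features (18.4%) and 61 of 334 HNG features (18.3%) were lower. Of the 638 HAG features that share their span only with a gene on the other strand, 21 (3.29%) were. Median levels were low for HNG (217) and HND (238), and 8.86% of all features with means of 200 to 500 were lower. HND_000279 on chromosome 10 had 1635 and 1646 normalised counts against 204 and 205, and HNG_015204 on chromosome 16 had 414 and 357 against 24.8 and 25.4. The labels do not say what these loci encode.

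**Figure D3:**
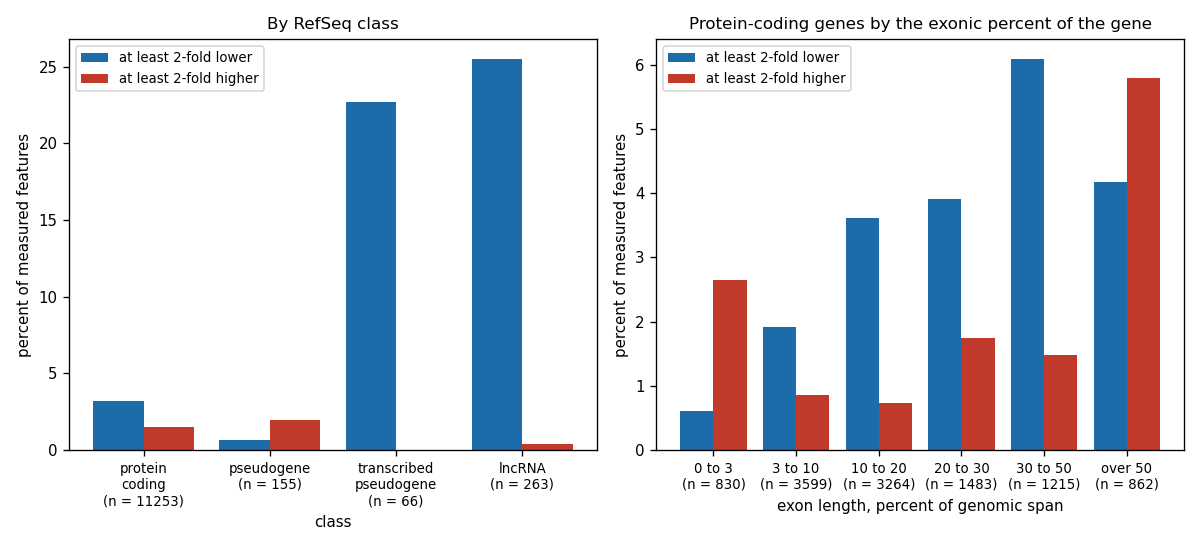
Percent of measured features at least 2-fold lower (blue) and higher (red) in libraries 3 and 4, by RefSeq class on the left and, for protein-coding genes, by exon length as a percent of genomic span on the right, with the number of features under each pair of bars. The blue bars of lncRNA (25.5%) and transcribed pseudogenes (22.7%) stand far above that of protein-coding genes (3.20%), and on the right the blue bars run from 0.602% for the most intron-rich genes to 6.09% at 30 to 50% exon.

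Protein-coding genes of RNA processing were the next group. Of 67 measured splicing factors and kinases, 11 (16.4%) were lower and 0 higher, with a median of -0.32 and 50 members below 0. Luc7l3, a partner of the U1 particle, had 12714 and 12425 normalised counts against 3280 and 3130, and its relative Luc7l was 2.37-fold lower, while Luc7l2 was 1.60-fold lower and not called. Clk1, a kinase of SR proteins that is known for retained introns in its own transcript, had 12748 and 12401 against 4557 and 4465. Its relatives Clk2 and Clk4 were 2.17-fold and 2.02-fold lower and Clk3 1.41-fold. Thus 3 of 4 Clk genes were called.

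Ptbp2, the neural polypyrimidine tract protein, was 3.09-fold lower, whereas Ptbp1 was at 0.06. Snrnp70, the U1 70K protein, was at -1.11, the SR protein Srsf6 at -1.09 and Hnrnph1, which binds G-rich RNA, had 23824 and 23673 normalised counts against 11420 and 11242. Tardbp, the TDP-43 gene, had 26877 and 26670 against 12404 and 12190 and shares its span with Masp2, itself 7.19-fold lower. Members that were not called included the spliceosome genes Sf3b1 at -0.37, Prpf8 at 0.11, U2af1 at 0.10 and Snrnp200 at 0.18.

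Other genes with high counts in libraries 1 and 2 were named after their values were seen. Leng8 had 16118 and 16603 normalised counts against 3107 and 3029, and Ttc14 had 13825 and 13684 against 2590 and 2555. Sfrs18, now Pnisr, had 13144 and 13002 against 2851 and 2790; it belongs to the splicing list but was not matched by name and is not among the 67 counted. D4Wsu53e, now Rsrp1, had 16288 and 16735 against 5692 and 5745. Each was 2.89-fold to 5.35-fold lower. Arglu1, a coactivator with a retained intron, was 3.54-fold lower, the cyclin Ccnl2 3.11-fold and the cyclophilin Nktr 2.78-fold, while Ccnl1 was 1.57-fold lower. Ttc14 overlaps Ccdc39, which was 4.94-fold lower, and Arglu1 overlaps an antisense feature.

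Ogt (mm9, chrX:98835403-98879690), the O-GlcNAc transferase that binds Tet proteins and whose transcript also keeps introns in the nucleus, had 31730 and 31272 normalised counts against 7385 and 7309. All 3 Tet dioxygenases, which oxidise 5-methylcytosine, were called: Tet2 was 3.54-fold lower, Tet3 2.07-fold and Tet1 2.05-fold, with Tet1 at 5417 and 5394 against 2686 and 2596. Tet3 and Tet1 were thus only just past the limit. Tet3 shares its span with the opposite-strand feature HAG_032949, itself 2.23-fold lower, and their reads cannot be told apart. The Tet genes were the 3 called of 25 DNA methylation genes, with Dnmt3a at -0.66, Dnmt3b at -0.56, Dnmt1 at -0.50 and Tdg, which removes oxidised cytosine, at -0.05. Mll2 on chromosome 15, the large H3K4 methyltransferase now named Kmt2d, had 21473 and 21688 against 6669 and 6604 and was the only one called of 91 Trithorax and large chromatin genes. The median of these 91 was -0.25, with 71 members below 0, while that of 44 Polycomb genes was -0.06 with 0 called.

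Among the 15 protein-coding genes with a symbol and the smallest ratios outside the neutrophil lists and without an overlapping measured feature were several known from other tissues. Tnni3, cardiac troponin I, had 220 and 245 normalised counts against 19.1 and 20.7. Catsperg1, a subunit of the sperm calcium channel, had 206 and 180 against 16.2 and 17.8. Gpr162, an orphan receptor, was 10.1-fold lower. Tmem149, now Igflr1, a receptor of the TNF receptor family, had 472 and 532 against 37.2 and 33.8. All these genes had 2-digit counts in the second pair and reached the minimum mean only through the first pair. Ovgp1 (oviductin), Prrt2 (a presynaptic protein) and the synaptic vesicle gene Vamp1 were 7.03-fold, 6.87-fold and 7.55-fold lower.

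Lower genes were also found at higher counts. Adamts10, a metalloproteinase of the matrix, had 5588 and 5741 normalised counts against 836 and 818. Gabbr1, a subunit of the metabotropic GABA receptor, had 4795 and 4962 against 863 and 740. Fam193b was 5.04-fold, Ankle1, a nuclease of blood-forming tissue, 5.17-fold and the corepressor Tle2 4.02-fold lower. Dst, a giant linker of the cytoskeleton, was 3.36-fold lower and its relative Macf1 2.09-fold, with 31517 and 31740 against 15247 and 15031. Spo11, the meiotic endonuclease, had 611 and 603 against 110 and 112, and Neb, the giant protein of the muscle thin filament, 530 and 516 against 89.7 and 98.6. Of the 355 lower features with a gene symbol, 272 belonged to none of the 53 gene lists used, and of the 171 higher ones 90. The share among all 10752 measured features with a symbol is not given. The count of 272 is therefore not read as a trait of the lower genes.

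Overlapping gene pairs show that the lower feature of a pair need not share its ratio with the partner. Ppifos, on the other strand of Ppif, had 834 and 818 normalised counts against 127 and 121, whereas Ppif had 5140 and 5008 against 5200 and 5023. Ggnbp1 was 7.23-fold lower and its overlapping neighbour Bak1 was at 0.13. In all, 177 of the 591 lower features and 62 of the 209 higher features overlap another feature. Among protein-coding features, no overlap was found for 8910 of 11253 measured, 286 of 360 lower and 139 of 171 higher ones. These shares lie close together, so overlap did not set the called protein-coding features apart.

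Gene structure moved with the share of lower genes. Among protein-coding genes, 0.602% of the 830 whose exons make up 3% or less of the span were lower, 3.62% of the 3264 at 10 to 20%, and 6.09% of the 1215 at 30 to 50%. Over 50% exon, 4.18% were lower and 5.80% higher, the latter group holding compact immediate early genes such as Jun and Klf2. The same order was seen at a mean of at least 1000, with 0.211%, 2.53%, 3.72% and 2.68% lower in these 4 bins. The median log2 ratio was 0.21 for genes with up to 1000 bases of exon and -0.19 for those above 8000. By the number of exons in the longest GENCODE M21 transcript it was 0.13 for single-exon genes and -0.20 above 40 exons, where 7.81% of 192 genes were lower. By transcript GC content the lower share was 4.60% up to 40%, 2.02% at 48 to 52%, 5.40% at 56 to 60% and 2.64% above 60%. The part of structure, length and base composition in the differences was not tested.

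Marker genes of other blood cells differed between the pairs too, and their part in the other results was not tested. Of 19 measured late neutrophil granule genes 11 were lower and 0 higher, with a median of -1.67. Their summed counts were 0.151% and 0.148% of libraries 1 and 2 and 0.0528% and 0.0526% of libraries 3 and 4, and Stfa2, BC100530, Gm5483 and BC117090 had 0 reads throughout. Itgb2l, a neutrophil integrin chain, had 393 and 347 normalised counts against 33.4 and 31.0. Lcn2, the siderophore-binding lipocalin, had 2296 and 2419 against 261 and 256, and the antimicrobial Camp 3206 and 3193 against 397 and 344. Chi3l3 was 5.14-fold and the gelatinase Mmp9 3.19-fold lower. Granule genes of the secondary and tertiary kind were thus low in the second pair, but the chemokine receptor Cxcr2 (-0.01), Padi4 (0.04) and Mgst1 (0.51) were not.

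Primary granule genes, which are made at the promyelocyte stage, were lower in 6 of 18 cases, with a median of -0.69. Mpo, myeloperoxidase, had 10378 and 10291 normalised counts against 4528 and 4443, while the proteinase gene Prtn3 had 6120 and 6040 against 6437 and 6325 and lysozyme 2 was at 0.26. The factor gene Cebpe, needed for secondary granules, had 164 and 166 against 36.3 and 42.3, whereas Cebpa was at 0.01. Cebpe reached the minimum mean only through libraries 1 and 2. The summed share of this list was nearly equal in the pairs, 0.137% and 0.137% against 0.132% and 0.131%. Members of the list thus moved apart within a stable sum.

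Of 25 measured monocyte and macrophage genes 6 were lower and 2 higher. The complement genes C1qa, C1qb and C1qc of tissue macrophages were 3.42-fold, 3.66-fold and 3.16-fold lower, with C1qb at 233 and 285 normalised counts against 71.5 and 69.5. These C1q genes reached the minimum mean only through libraries 1 and 2, so the share of lower members is partly set by the filter. Itgam, the CD11b chain, was 2.69-fold lower and Emr1, the F4/80 antigen, 2.07-fold. Ccr2, the receptor of inflammatory monocytes, went the other way, with 179 and 181 against 516 and 528, as did the clotting factor subunit gene F13a1 at 1.42. The macrophage colony-stimulating factor receptor gene Csf1r was at 0.06 and Cd163, a marker of marrow macrophages, at -0.31. The summed share was 0.0656%, 0.0655%, 0.0659% and 0.0661%, so that the list had no common direction.

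Eosinophil genes were higher in 5 of 6 measured cases. This share is partly set by the filter: Ear1 (pair means 35.7 and 202) and the joint Ear6 and Ear7 feature (35.7 and 230) reached the minimum mean only through libraries 3 and 4. Prg2, the major basic protein, had 582 and 571 normalised counts against 2087 and 2107, Epx, eosinophil peroxidase, 227 and 241 against 642 and 595, and the ribonucleases Ear6 and Ear7, counted together, 38.9 and 32.5 against 223 and 238. Ear genes are near-identical copies, so their separate counts are uncertain. The list took 0.00299% and 0.00291% of libraries 1 and 2 and 0.00831% and 0.00837% of libraries 3 and 4. Ear4, Ear5, Ear10 and Ear11 had 0 reads in all libraries, and Siglec5 was at -0.51.

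Of 17 mast cell and basophil genes only Prss34 and Mcpt8, both basophil proteases, were called. Prss34 had 32.6 and 25.1 normalised counts against 456 and 452, and Mcpt8 42.1 and 34.6 against 237 and 228. Both reached the minimum mean only through libraries 3 and 4, so this result is partly set by the filter. Cpa3 (0.11) and the IgE receptor chain Fcer1a (0.15), which basophils and mast cells share, were near all features, and 8 mast cell genes including Mcpt4, Cma1 and Tpsb2 had 0 reads. Immunoglobulin genes were higher as well: Igj, the joining chain of secreted antibody, had 316 and 310 against 1150 and 1188, and the feature that spans Ighg1 and neighbouring heavy chain segments had 591 and 474 against 3300 and 3290. The B cell genes Cd79a, at 10.5 to 42.1 counts, and Ebf1, at 2.10 to 8.38, were scarce in every library, and Igj was the only one called of 8 measured B cell genes. Of 11 T and NK cell genes only Klrb1c, the NK1.1 antigen, was called, with 422 and 388 against 1188 and 1260.

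Erythroid genes were lower in 3 of 41 cases, Ppox of haem synthesis (3.07-fold), the mitochondrial iron carrier Slc25a37 (2.52-fold) and the transferrin receptor Tfrc (2.24-fold), while Gata1 was at -0.06 and Slc4a1, the red cell anion exchanger, at 0.51. Of 38 megakaryocyte genes, F10 and Thbs1 were higher, and 32 were above 0, with von Willebrand factor (Vwf) at 16466 and 16770 normalised counts against 26083 and 25639. Endothelial and stromal genes were higher in 4 of 23 cases: fibronectin (Fn1) had 350 and 353 against 1808 and 1681, and the VEGF receptor Kdr, Ramp2 and osteopontin (Spp1) were 2.20-fold to 2.33-fold higher.

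**Figure D4:**
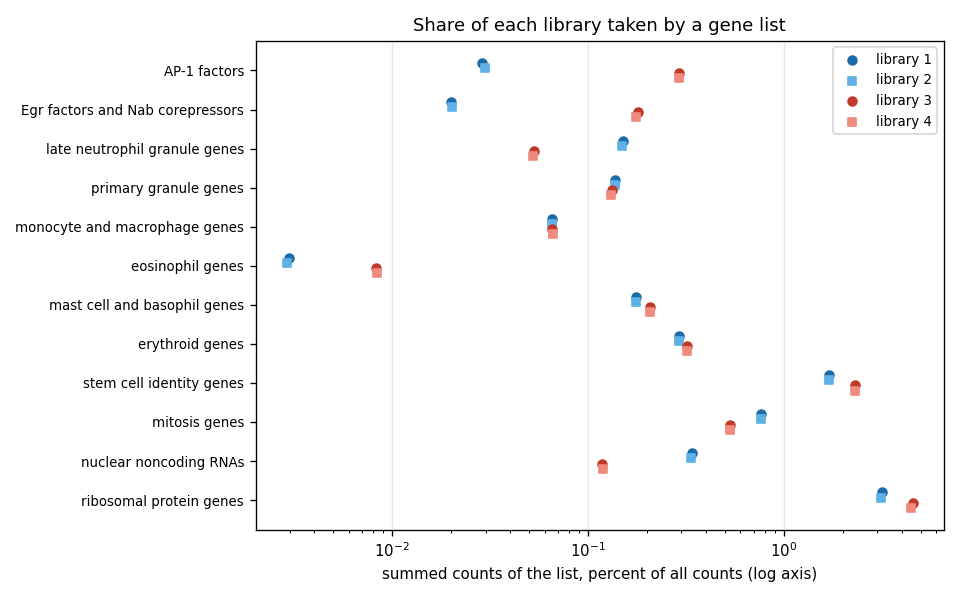
Summed counts of 12 gene lists as a percent of all counts of each library (log axis; blue for libraries 1 and 2, red for 3 and 4). AP-1 factors went from 0.0288% and 0.0297% to 0.293% and 0.292% and late neutrophil genes from 0.151% and 0.148% to 0.0528% and 0.0526%, whereas monocyte and macrophage genes stayed between 0.0655% and 0.0661%.

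Stem cell genes were for the most part slightly higher in libraries 3 and 4. Of 72 measured members 62 were above 0 and 5 were called, with a median of 0.44, and 3 of the 5 (Egr1, Nr4a1 and Socs3) are also stimulus-responsive. Procr, the EPCR antigen of stem cells, had 2907 and 3021 normalised counts against 4982 and 4806, and Ly6a, which encodes Sca-1, 2122 and 2077 against 4031 and 3908. The lectin gene Clec1a was 2.15-fold higher. Hlf was at 0.47, Mecom at 0.41 and Mycn at -0.00, while Meis1 (-0.01) and Cd34 (-0.10) were even and Flt3, a progenitor receptor, was at -0.31. The list took 1.70% and 1.71% of libraries 1 and 2 against 2.31% in each of libraries 3 and 4.

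Proliferation genes were slightly lower as a group. Of 71 mitosis genes 68 were below 0, with a median of -0.32, and 2 were called: Mki67 had 50328 and 49510 normalised counts against 23267 and 22919, and the kinesin Kif20b was 2.19-fold lower. Among the others, Cenpe was at -0.95, Aspm at -0.83, Cenpf at -0.70, Cdk1 at -0.21, Ccnb1 at -0.14 and Ube2c at -0.12. Of 67 replication genes 63 were below 0, with a median of -0.37, and Cdc7, the kinase that fires origins, was called at 2.68-fold. Its list mates Mcm5 and Mcm6 were at -0.38 and -0.10. All measured features had a median of 0.049. Protein-coding genes had a median of 0.12 at 1000 to 2000 bases of exon and -0.19 above 8000. The part of length in these lower medians was not tested.

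Ribosomal protein genes showed the opposite shift with little scatter. Of 80 measured members 79 were above 0, with quartiles of 0.40 and 0.64 around a median of 0.54, and 0 were called. Nuclear genes of the respiratory chain were above 0 in 70 of 74 cases, with a median of 0.22, and proteasome subunits in 29 of 34, with a median of 0.16. For comparison, protein-coding genes with up to 1000 bases of exon had a median of 0.21; the part of length in these shifts was not tested.

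**Figure D5:**
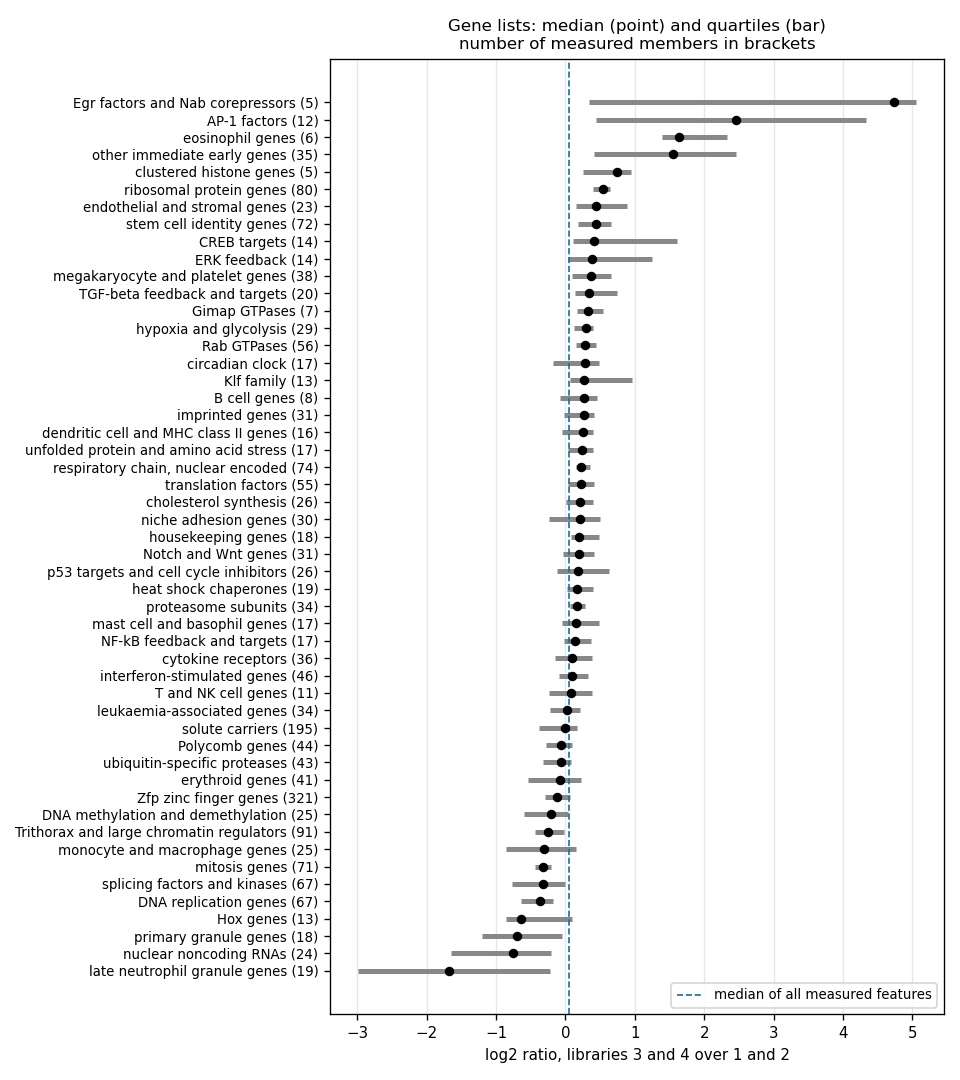
Median (point) and quartiles (bar) of the log2 ratio of libraries 3 and 4 over 1 and 2 for each gene list with at least 5 measured members, whose number is in brackets, and the median of all measured features (0.049, dashed). The Egr list (4.73) and the AP-1 list (2.46) are at the top and the nuclear noncoding RNAs (-0.75) and late neutrophil genes (-1.67) at the bottom.

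Other lists held single genes of note. Of 13 measured Hox genes 2 were lower, Hoxb4, a self-renewal factor, with 774 and 755 normalised counts against 308 and 366, and Hoxa6, which overlaps Hoxa3, 2.80-fold, while Hoxa10 was at 0.56. Of 31 imprinted genes 3 were lower, all noncoding (Meg3, Kcnq1ot1 and Rian at -1.02), and 2 higher, Igf2 (139 and 157 against 325 and 320) and Asb4. Interferon-stimulated genes were lower in 4 of 46 cases, the Mx and Oas genes Mx1, Mx2, Oas1b and Oas2, while Ifit1 was at 0.61 and Ifit3 at 0.41. Mx1 and Mx2 reached the minimum mean only through libraries 1 and 2. Of 195 features whose symbol begins with Slc and a digit 13 were lower and 0 higher, counting the pseudogene Slc2a4rg-ps, which is no transporter. Among the 13 were Slc12a5, the neuronal chloride exporter, 5.82-fold, and the sodium-proton exchanger Slc9a5 6.03-fold. Of 321 Zfp zinc finger genes 9 were lower, such as Zfp692 with 1805 and 1801 against 436 and 382, and only Zfp36 and Zfp503 were higher.

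The Y-linked genes Ddx3y (4010, 3920, 3843 and 3780 normalised counts in library order) and Uty (2146, 2071, 2293 and 2228) were counted at similar levels throughout, while Eif2s3y (3213 and 3340 against 2315 and 2252) and Kdm5d (2791 and 2703 against 2094 and 2066) were lower by less than 2-fold. Xist, the RNA that coats the inactive X chromosome, had 112 and 110 against 18.1 and 16.0, and its antisense partner Tsix 176 and 158 against 24.8 and 23.5, both under the minimum mean of 100. Xist lies within the span of Tsix on the opposite strand, and the kit as named keeps no strand, so their reads cannot be told apart. Usp9y had 0 reads in libraries 1 and 2 and 3.82 and 3.76 normalised counts in libraries 3 and 4.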

How the data were processed

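The authors deposited whole-number counts of reads per feature for each library; per the labels, RNA came from a Qiagen RNeasy Micro kit, was selected for polyA and went into TruSeq RNA libraries. Per the submitters' processing notes the build is mm9; those notes also list DESeq, with no role. An aligner and an annotation were not named in those notes or in the labels. A length-scaled signal deposited by the authors beside the counts served only to obtain exon lengths. Of the 30 columns, 8 hold per-library values of samples not analysed here.

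Median-of-ratios scaling, with size factors of 0.951, 0.955, 1.048 and 1.065, was computed in Python 3.11.15 with numpy 2.4.6; pairs were averaged, and ratios were taken as log2(mean + 0.5). Other scalings came from edgeR 4.0.16 in R 4.3.3. The calculation was tested on simulated data. No p-value was computed. Interval and floor (3 counts, up to 0.0737 CPM for 0 reads) cover counting error only, at 40709659 to 47408552 counts per library.

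The comparison, the 53 gene lists and the rule for named genes were chosen with earlier results of these data known. The rule took, among measured features that have a symbol, the 15 largest ratios, the 25 smallest outside and 8 smallest inside the neutrophil lists, up to 4 called members per list, the sex-linked genes and the 6 called genes of the highest counts in each direction. Other genes, given as examples of lists or outside them, were picked after their values were seen. RefSeq classes were matched by symbol for 89.9% of measured features, GENCODE M21 transcripts for 91.4% of protein-coding ones and RefSeq promoters for 64.7%. A feature with joined names took the class of the first name that matched. Alternatives were other scalings, minimum levels, folds and pseudocounts, symbols only, no overlaps, and leaving out each library.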

Additional observations from a re-analysis of the deposited data

How the results depend on the processing

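With the minimum mean at 10, 555 features were higher, 1692 lower and 1667 lower outside the neutrophil lists, against 209, 591 and 574 as reported. At 500 these were 94, 294 and 283, and with no minimum 1639 were higher and 4953 lower. A fold of 1.5 gave 834 and 1441, a fold of 4 gave 46 and 181, and features with a gene symbol alone gave 355 lower. Without 1 library at a time the counts were 193 to 238 higher, 544 to 678 lower and 528 to 656 lower outside the neutrophil lists. TMM scaling gave 211 and 588, upper quartile scaling 209 and 595, total counts 173 and 690 (median of all features -0.020), a pseudocount of 5 gave 197 and 583, and features without overlap 147 and 414. A limit on the difference within pairs, chosen after seeing the data, gave 206 and 590. Of 137 named genes past 2-fold, all 137 kept their call under TMM, upper quartile scaling and the larger pseudocount, 130 under total counts (Asb4, Bambi, Dnajb1, Hspb8, Sfrp1, Trib3 and Tsc22d1 did not), and 135 to 137 without 1 library. List medians changed sign in 4 cases: monocyte and macrophage genes at a minimum mean of 500 (0.060), B cell genes at 10 (-0.120), leukaemia-associated genes under total counts (-0.046) and Slc genes at 500 (0.005). The cause was not tested. No paired analysis was possible because all 4 libraries belong to 1 group in the labels. Depth limits features of few reads, where a difference may not be detectable.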
